A study of Mus musculus with 8 samples.

Results

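The cells described here are CD4 T cells taken from NOD pancreas in which both Sox4 and Itm2a were detected. They were chosen by raw transcript counts, so their high levels of these 2 genes come from the rule. A cell counted when it had at least 500 detected genes, under 10% mitochondrial UMIs and at least 2 UMIs over 6 T cell receptor and CD3 genes. It also had at least 1 UMI each of Cd4, Sox4 and Itm2a and none of Cd8a, Cd8b1 or Foxp3. A UMI (unique molecular identifier) marks 1 captured transcript. The rule found 545 cells among 28119 CD4+ Foxp3- T cells (1.94%), 77359 T cells and 80470 barcodes. The other 27574 CD4+ Foxp3- cells are the comparison, and they too had no UMI of Cd8a or Cd8b1, a condition that the rule names for the members alone. Among them 3623 cells had Itm2a without Sox4, 1033 had Sox4 without Itm2a and 22918 had neither.

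The study asked how a drug pair changes the T cells that infiltrate the pancreas of diabetic NOD mice, which spontaneously develop autoimmune diabetes. It holds 8 droplet libraries of sorted CD45+ CD3+ TCRβ+ cells, frozen after the sort, from the pancreas of spontaneously diabetic NOD mice labelled female, aged 3 to 4 months by one label and up to 5 months by another. PPCA denotes nutlin-3 at 50 mg/kg, an MDM2 inhibitor that stabilizes p53, with MK-1775 at 25 mg/kg, a Wee1 inhibitor, given daily to mice of new-onset diabetes with glucose of 200 to 300 mg/dl. Vehicle mice of the same glucose range received the solvent of ethanol, Tween 20 and PEG300. PPCA and vehicle have 3 libraries each, harvested on days 2, 3 and 4 as the sample names give them. Mice with active diabetes (glucose above 600 mg/dl) and with onset diabetes (250 mg/dl) have 1 library each, harvested on day 1 as controls with no drug named. The number of mice per library is not stated, so p-values measure the spread between these libraries.

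Sox4 is a transcription factor of the SOX family that is high in thymocytes and falls as T cells mature. Itm2a encodes a membrane protein that appears during positive selection in the thymus and after T cell receptor signalling in the periphery. Recent thymic emigrants are T cells newly arrived from the thymus. They still carry some thymocyte transcripts and have yet to reach the full set of surface molecules of mature naive cells.

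Member numbers ran from 32 cells in PPCA day 4 to 192 in vehicle day 4, which alone gave 35.2% of them. The other libraries gave 48 (active), 93 (onset), 44 (vehicle day 2), 42 (PPCA day 2), 61 (vehicle day 3) and 33 (PPCA day 3). The summed UMIs of the members lay between 166578 and 1229552 per library. Their median UMIs per cell lay between 4504 and 5729.5, beside 3899.5 to 6212 in the other CD4+ Foxp3- cells. In 8 of 8 libraries the members had more detected genes (medians of 1727.5 to 2058 against 1408 to 1981 in the other cells) and a lower mitochondrial percentage (1.92 to 3.99% against 2.08 to 4.48%), and the part of these in the expression differences was not tested. Library labels and transcripts disagreed: 4 of 8 libraries (vehicle days 2 and 3, PPCA days 3 and 4) carried 188 to 276 CPM of Y-linked transcripts and at most 0.745 CPM of Xist, although all mice are labelled female. CPM is UMIs per 1000000 UMIs of the summed cells. Some results are therefore also given within the 4 libraries with Xist and the 4 with Y-linked transcripts. Pairs of libraries shared between 14 and 41 cell barcodes.

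Among the members 223 had exactly 1 UMI of each rule gene, and 91 had at least 2 of each. These cells are just inside and well inside the rule, and the cells with 1 of the genes missing are just outside it. Over all libraries pooled, Cd24a, a surface protein that thymocytes lose on maturation, was at 0.496 CPM in cells with neither gene. It was at 1.55 CPM with Itm2a alone, 3.88 CPM with Sox4 alone and 10.1 CPM in the members with 1 UMI of each. Of the 12 Cd24a UMIs behind the last value 9 came from vehicle day 4 and 3 from PPCA day 4, and the other 6 libraries had 0. Without vehicle day 4 it was 3.50 CPM, below the 3.89 CPM with Sox4 alone. The members with more UMIs of 1 or both genes then had 8.09 CPM (more Sox4), 15.6 CPM (more Itm2a) and 12.4 CPM (more of both), on 3 to 8 UMIs each. Stmn1 was at 21.5, 32.3, 43.0 and 55.6 CPM in the same 4 sets of cells, and Tesc at 112, 134, 142 and 164 CPM. By library, members with 1 UMI of each were above the cells with Sox4 alone in 4 of 8 for Stmn1, 7 of 8 for Tesc and 2 of 8 for Cd24a. Members with 1 UMI of Sox4 and at least 2 of Itm2a had 13.8 CPM of Cd24a, 42.7 CPM of Stmn1 and 136 CPM of Tesc, the latter 2 not above the cells with Sox4 alone. Those with at least 2 UMIs of Sox4 and 1 of Itm2a had 6.81, 51.7 and 162 CPM. Members with at least 2 UMIs of each gene had 9.17 CPM of Cd24a, 58.1 CPM of Stmn1 and 142 CPM of Tesc. Sox4 itself lay between 216 and 362 CPM in the members and between 4.74 and 15.8 CPM in the other cells, and Itm2a between 270 and 436 CPM against 27.5 to 45.7 CPM. The Cd24a levels rest on 34 UMIs in all members.

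Of the CD4+ Foxp3- cells, members made up 1.68% (exact 95% interval 1.24 to 2.22) in active and 1.86% in onset diabetes. Vehicle libraries held 1.47%, 1.72% and 3.95% on days 2, 3 and 4, and PPCA libraries 1.34%, 1.27% and 1.02%. The exact 95% intervals of day 4 were 3.42 to 4.54% for vehicle and 0.697 to 1.43% for PPCA. The vehicle library of day 4 stood above all others, and the remaining 7 lay between 1.02% and 1.86%. It also had the highest detection of each gene alone, with Sox4 in 9.77% and Itm2a in 21.1% of its CD4+ Foxp3- cells. Independent detection would give 100 of its 192 members, a ratio of 1.91, the lowest of the 8 libraries. The highest ratio was 3.58 in PPCA day 4, where 8.94 of 32 would be given. With each cell thinned to 2000 UMIs the ratio was 2.01 to 3.24, with vehicle day 4 at 2.72. Because detection depends on depth, every cell was also down-sampled to 2000 UMIs. The 289 cells below that depth were dropped. Both genes were read again after thinning, which left 156 members, and members that lost either gene counted as other cells. Thinned shares were 0.271%, 0.566% and 1.26% in vehicle and 0.426%, 0.466% and 0.229% in PPCA, 0.316% in active and 0.524% in onset. Thinned shares averaged 0.373% ± 0.127 (SD, n = 3 libraries) with PPCA and 0.699% ± 0.508 (SD, n = 3) with vehicle, a difference of -0.33 percentage points. PPCA was the higher on 1 of 3 days, and the two-sided exact sign-flip test over days gave p = 0.75, where the smallest possible p is 0.25. Unthinned, the difference was -1.17 points and PPCA was the lower arm on each of the 3 days (two-sided exact sign-flip test, p = 0.25). Without the 2 libraries of day 4 the thinned difference was 0.027 points, of the opposite sign. On days 2 and 4 the vehicle and PPCA libraries differ in their sex transcripts (vehicle with Y-linked transcripts on day 2 and Xist on day 4, PPCA the reverse), and their part in the shares was not tested. The same UMI rule marked 0.0944% of thinned CD8-gated cells (median depth 4416.5 to 7294.5 UMIs by library) and 0.167% of thinned Foxp3+ CD4 cells (2 of 1196). It marked 0 of 451 thinned cells with B or myeloid transcripts, which allows up to 0.665%. Over CD4+ Foxp3- cells the thinned share was 0.561% (median depth 3933 to 6213 UMIs by library). With all UMIs the rule marked 1.94% of CD4+ Foxp3- cells and 0.527% of CD8-gated cells. Unthinned, it also marked 1.38% of Foxp3+ CD4 cells (17 of 1231) and 1.76% of cells with B or myeloid transcripts (8 of 454).

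**Figure D1:**
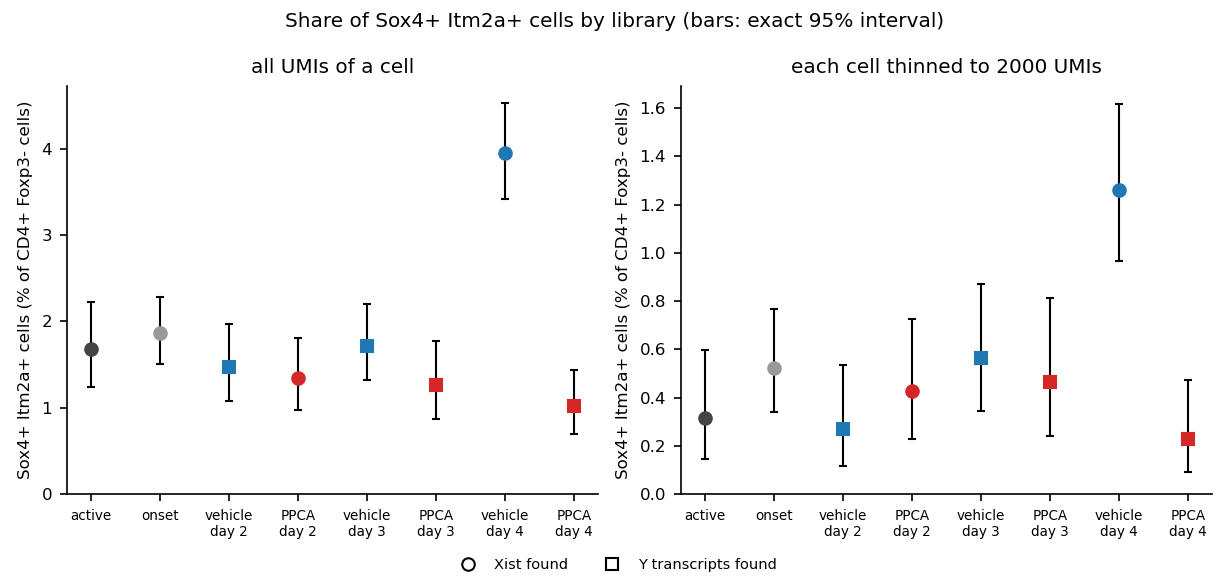
Share of Sox4+ Itm2a+ cells among CD4+ Foxp3- cells (vertical axis, percent) in each library, with all UMIs (left) and with each cell thinned to 2000 UMIs (right). Bars are exact Clopper-Pearson 95% intervals, which cover counting error alone, circles mark libraries with Xist and squares those with Y-linked transcripts. The vehicle library of day 4 is at 3.95% and 1.26%, above the other 7 libraries in both panels.

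Compared with the other CD4+ Foxp3- cells of the same libraries, the Sox4+ Itm2a+ cells had less transcript of 8 of 10 tested type 1 effector genes and 11 of 12 memory genes. They had more of 7 of 13 thymocyte and emigrant genes. Of these, Tesc did not pass the threshold in some settings given below, and Satb1 turned negative after thinning. They also had more of 8 of 14 T cell receptor response genes, a count that fell to 1 in some settings given below. In edgeR's quasi-likelihood test on UMI sums, with the library as a block and the rule genes taken out, 188 of 10276 genes were higher (1.83%) and 394 were lower (3.83%) at a Benjamini-Hochberg adjusted p under 0.05. With DESeq2's size factors in place of TMM, edgeR's scaling between libraries, these counts were 239 and 319, so that 42.8% rather than 32.3% of the calls were higher. Of the genes called, 53 were higher in 8 of 8 libraries and 266 lower in 8 of 8. For 17 of the higher and 22 of the lower genes, the levels of members and of the other cells did not overlap across libraries. Agreement and overlap were counted among called genes alone, without the share over all tested genes. A gene found in the other cells and at 0 UMIs in the members of a library counted as lower there. The 4 libraries with Xist gave 361 calls and the 4 with Y-linked transcripts 188. Without vehicle day 4, the library with the most members, 485 genes were called. Thinning to 2000 UMIs left 308 calls, 9 higher and 299 lower, with the median of all genes at -0.39 on the log2 scale. In that setting, members that lost either gene through thinning were part of the comparison cells. Of the 539 genes called with all UMIs and still tested after thinning, 467 kept their sign. This count is not relative to the median of -0.39, which lies on the side of the lower genes. Because 2 detected genes define the members, the fit compares cells sorted by their own transcripts, and it describes which transcripts accompany Sox4 and Itm2a.

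Myb encodes a transcription factor of thymocytes and blood progenitors. It ranged from 14.6 CPM (onset) through a median of 49.1 CPM to 113 CPM (PPCA day 2) in the members, against 3.01, 5.73 and 9.11 CPM in the other cells. The 2 sets of libraries did not overlap, and the log2 fold change was 3.07 ± 0.21 (SE; edgeR adjusted p = 1.62e-24). Its 185 UMIs came from 68 of the 545 cells. Arhgap20, which encodes a GTPase-activating protein, had the highest fold change of the named genes, at 3.98 ± 0.33. Its levels were 6.003, 15.9 and 47.9 CPM (lowest, median, highest) against 0.858, 0.926 and 2.93 CPM, from 61 UMIs in 24 cells. Hivep3, a zinc finger regulator of lymphocyte development, lay at 48.0, 134 and 255 CPM against 17.7, 24.8 and 35.1 CPM, a log2 fold change of 2.18 ± 0.13. Neither gene overlapped between the cell sets. Id3, an inhibitor of E proteins that T cell receptor signalling induces, was at 46.4, 94.7 and 199 CPM against 24.2, 35.8 and 56.7 CPM. These ranges overlapped, although Id3 was higher in 8 of 8 libraries (1.33 ± 0.12).

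The rule for named genes required the same direction in every library, so that agreement is no finding for them. Smc4, a condensin subunit, was at 323, 463 and 552 CPM against 182, 223 and 274 CPM, with no overlap and a log2 fold change of 0.82 ± 0.07. Dnmt3a, a de novo DNA methyltransferase, and Ezh2, the histone H3 lysine 27 methyltransferase, rose by 0.91 ± 0.15 and 0.85 ± 0.15. Tfdp1, a partner of E2F factors, rose by 0.87 ± 0.22, and Ybx3, an RNA- and DNA-binding protein, by 1.04 ± 0.16. After thinning, where the median of all genes was -0.39, Ezh2 was at -0.14 and Ybx3 at -0.33, both above that median and without passing the threshold. Myb (2.96), Hivep3 (2.03) and Id3 (1.23) stayed past it.

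**Figure D2:**
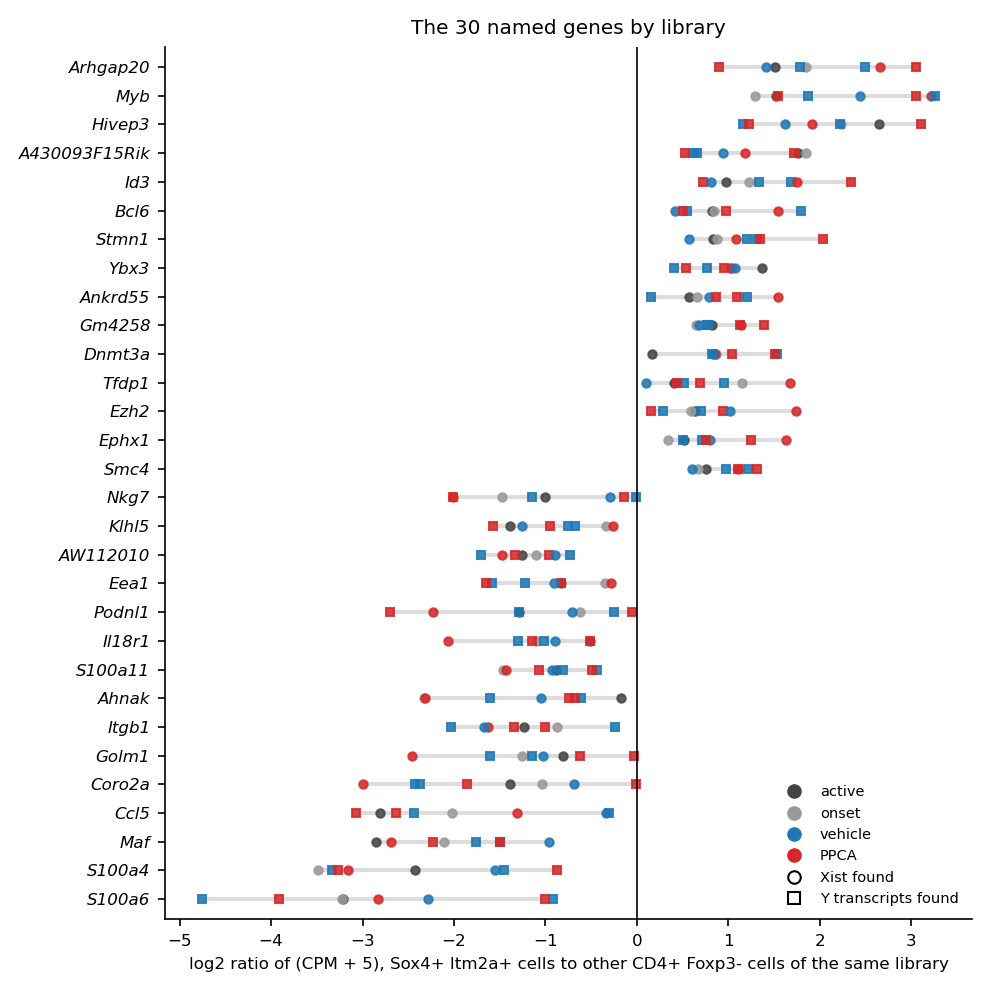
Log2 ratio of (CPM + 5) of Sox4+ Itm2a+ cells to the other CD4+ Foxp3- cells of the same library (horizontal axis) for the 15 highest and 15 lowest named genes (vertical axis), 1 point per library. Colours give the groups, circles libraries with Xist and squares libraries with Y-linked transcripts. All 8 points of each gene lie on 1 side of 0, as the naming rule required, and Arhgap20, Myb and Hivep3 lie farthest to the right.

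Thymocyte and recent emigrant genes were mostly higher or unresolved. Of 18 listed genes 13 could be tested, 7 were higher and 0 lower, and the median log2 fold change was 0.33 beside -0.02 over all tested genes. The count for this list in the other settings is not reported here. Stmn1, a microtubule regulator of immature and dividing lymphocytes, was at 39.9, 64.0 and 96.1 CPM against 19.7, 22.8 and 29.2 CPM. The sets did not overlap (1.07 ± 0.15, edgeR adjusted p = 1.77e-08). Tox, a nuclear factor needed for CD4 lineage development, was at 91.9, 123 and 184 CPM against 52.2, 67.2 and 93.2 CPM and rose by 0.73 ± 0.10, higher in 8 of 8 libraries. Ccr9, the receptor that guides thymocytes and gut T cells to CCL25, rose by 1.68 ± 0.36 on 36 UMIs from 21 cells. Plxnd1, a plexin of thymocyte migration, rose by 1.71 ± 0.39 on 30 UMIs. Satb1, a chromatin organizer of thymocytes, rose by 0.25 ± 0.06 and was at -0.10 after thinning, above the median of all genes there. Tesc, a calcium-binding protein, was at 66.0, 157 and 213 CPM against 59.9, 116 and 142 CPM, higher in 6 of 8 libraries (0.28 ± 0.09, adjusted p = 0.0299). It did not pass the threshold in the 4 libraries with Xist (0.12), after thinning (0.29) or with DESeq2 (0.33). Stmn1 and Tesc were named as markers with earlier results of these data known and are no independent support for the label.

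The defining genes of thymocyte receptor rearrangement were at 0: no UMI of Rag1, Rag2 or Ptcra was found in the members, and Dntt had 6 UMIs. These genes did not separate members from the other cells, where Rag1 and Rag2 were also at 0 in all 8 libraries, Ptcra was at most at 0.547 CPM and Dntt had a log2 fold change of -0.13 without passing the threshold. Lztfl1, Ssbp2, Cd38, Themis and Bcl11b did not pass the threshold, with log2 fold changes of 0.26, 0.33, 0.56, -0.11 and -0.03. The label of recent emigrants therefore rests on part of the list, and the cells are called by their 2 detected genes here. The tests use UMI sums per library, which do not separate more cells with a transcript from more transcript per cell, so the number of cells with a UMI is given for several genes.

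Among genes that T cells gain as they mature in the periphery, more were lower than higher, while their sum was similar. The summed list had a median over libraries of 4770 CPM in the members and 4801 CPM in the other cells. This sum was higher in the members in 4 of 8 libraries. Of 11 tested genes 6 were lower and 1, Ptprc (CD45), was higher (-0.28 after thinning, beside -0.39 over all genes), with a median of -0.22. Il7r, the receptor chain for the survival cytokine interleukin-7, was at 278, 405 and 834 CPM against 391, 547 and 966 CPM. The levels overlapped between libraries, but Il7r was lower in 8 of 8 (-0.60 ± 0.07, edgeR adjusted p = 6.08e-12). Cd55, a complement regulator that emigrants have at low level, was at 15.96, 34.9 and 51.1 CPM against 51.8, 62.8 and 80.6 CPM, without overlap (-0.89 ± 0.13). Ly6a (Sca-1), Itgb7, the gut-homing integrin chain, and the class I-like gene H2-Q7 fell by 0.79, 0.51 and 0.38, each lower in 8 of 8 libraries. Reads of H2-Q7 may be shared with its near-identical neighbours, of which H2-Q6 did not pass the threshold (-0.22). S1pr1, the receptor by which T cells leave the thymus, was at -0.11 and did not pass it either.

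Most resting naive genes did not pass the threshold. Of 12 genes 4 were lower, 0 were higher and the median was -0.04. Dapl1, a gene of quiescent naive T cells, was at 113, 169 and 252 CPM against 203, 279 and 390 CPM and fell by 0.89 ± 0.08 in 8 of 8 libraries. Igfbp4 (-0.35) and Klf2 (-0.18), a factor of T cell quiescence and trafficking, were the others beside Il7r. Ccr7, Lef1, Tcf7, Foxp1, Bach2, Txk and Actn1 did not pass the threshold, with values between -0.12 and 0.18.

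Genes that respond to T cell receptor signalling were higher for 8 of 14 listed genes and lower for 0, with a median of 0.52. Nr4a1 (Nur77), an orphan nuclear receptor and immediate reporter of receptor signalling, lay at 2.57, 109 and 240 CPM in the members and 16.2, 27.9 and 138 CPM in the other cells. The lowest value, in vehicle day 3, was the only library where members were below the others, and the log2 fold change was 0.99 ± 0.13 (edgeR adjusted p = 2.24e-09). Its 443 UMIs came from 174 cells. Both day 4 libraries stood apart, with 203 (vehicle) and 240 CPM (PPCA) in the members. In cells with neither rule gene Nr4a1 was at 136 and 110 CPM there, against 15.3 to 34.4 CPM in the other libraries. Cd5, a receptor whose level follows the strength of self recognition, was at 246, 331 and 533 CPM against 175, 210 and 262 CPM and rose by 0.56 ± 0.07 in 8 of 8 libraries. Irf4 rose by 1.13 ± 0.24, Egr2 by 1.00 ± 0.27, Nr4a3 by 0.78 ± 0.16, Nab2 by 0.58 ± 0.18, Nfkbid by 0.56 ± 0.15 and Dusp2 by 0.25 ± 0.08. Egr2 was higher in 4 of 8 libraries and Nr4a3 in 5 of 8. Egr1, Egr3, Nr4a2, Cd69, Myc and Tnfaip3 did not pass the threshold, with values of 0.05 to 0.48. The list depended on the libraries: 7 of 14 genes were higher in the libraries with Xist (median 0.63) and 1 of 14 in those with Y-linked transcripts (median 0.05). Nr4a3 was at -0.083 in the latter. After thinning 1 of 13 was higher (Nr4a1), and the list's median was 0.03 beside -0.39 over all genes. Egr2 (-0.64), Irf4 (-0.55) and Nab2 (-0.88) lay below that median of all genes and Dusp2 (-0.40) beside it. Without the replicate block 1 of 14 was higher. The sum of 14 dissociation and stress genes was higher in 6 of 8 libraries.

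The promoters of Nr4a1 and Nr4a3 are shown because both are among the 8 higher genes, Nr4a1 in 7 of 8 libraries and Nr4a3 in 5 of 8, and both hold the core of the cAMP response element. The stretches run from 250 bases before to 50 after the RefSeq start, on the plus strand of GRCm38.p6, at chr15:101266596-101266895 and chr4:48045055-48045354. Capitals mark TGACG, searched on both strands. Each promoter had 4 matches.
Nr4a1: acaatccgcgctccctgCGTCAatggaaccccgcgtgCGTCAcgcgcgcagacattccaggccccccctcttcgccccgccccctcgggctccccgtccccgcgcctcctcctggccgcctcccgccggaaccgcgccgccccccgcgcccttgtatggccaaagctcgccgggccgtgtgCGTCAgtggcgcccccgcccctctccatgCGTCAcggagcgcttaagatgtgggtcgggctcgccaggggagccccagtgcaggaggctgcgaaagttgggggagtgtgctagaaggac
Nr4a3: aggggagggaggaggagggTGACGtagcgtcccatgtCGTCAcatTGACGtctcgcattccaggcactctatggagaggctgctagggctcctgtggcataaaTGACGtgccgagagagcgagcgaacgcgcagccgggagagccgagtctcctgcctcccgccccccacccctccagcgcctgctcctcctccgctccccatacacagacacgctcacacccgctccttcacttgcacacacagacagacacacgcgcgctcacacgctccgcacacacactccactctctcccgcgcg
Among 32851 RefSeq promoters of this length, 20.8% hold the motif, and 23.0% of the 27025 genes have it in at least 1 promoter. RefSeq promoters were matched for 10 of the 14 listed genes. Of the 8 higher genes 5 had the motif in at least 1 promoter (Nr4a1, Nr4a3, Egr2, Nfkbid and Dusp2), and so did both matched genes that did not pass the threshold, Nr4a2 and Tnfaip3. A match is a run of letters and not a bound site.

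Effector and memory transcripts were lower. Of 10 tested type 1 effector genes 8 were lower and 0 higher, with a median of -1.56, and the summed list lay between 154 and 384 CPM in the members and between 326 and 905 CPM in the other cells. Ccl5, a chemokine of effector and memory T cells, was at 10.6, 40.2 and 61.7 CPM against 57.7, 119 and 391 CPM and fell by 1.69 ± 0.15 (edgeR adjusted p = 1.78e-17). It was lower in 8 of 8 libraries, with a small overlap of the ranges. The interferon gamma gene Ifng had 6 UMIs in the members (-2.81 ± 0.45). The chemokine receptors Cxcr3 and Cxcr6 had 9 UMIs each, at 0 to 6.003 CPM against 7.77 to 26.0 and 7.14 to 27.7 CPM, without overlap. The cytotoxic granule genes Nkg7 and Prf1 fell by 1.19 and 1.03, Il18r1 by 1.29 and Ccl4 by 1.44. Id2 and Gzmk did not pass the threshold (0.17 and -2.01).

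Memory and motility genes were lower for 11 of 12 tested, with a median of -0.98. S100a4, a calcium-binding protein of memory T cells, was at 0, 3.896 and 48.0 CPM in the members against 33.6, 54.4 and 92.2 CPM, and fell by 2.71 ± 0.23. Its 28 UMIs came from 9 cells, and the highest library was PPCA day 4. S100a6 was at 0, 3.76 and 72.0 CPM against 41.4, 71.4 and 149 CPM (-2.77 ± 0.21). Both were lower in 8 of 8 libraries while their ranges overlapped through PPCA day 4. Itgb1, the integrin chain of tissue adhesion, fell by 1.45 ± 0.12, Ahnak by 1.34 ± 0.14 and S100a11 by 1.31 ± 0.20. The activation marker Cd44 fell by 0.62 ± 0.17 in 8 of 8 libraries. In the libraries with Xist 9 of 13 memory genes were lower (median -1.52), and in those with Y-linked transcripts 5 of 12 (median -1.01). For effector genes the counts were 7 of 10 (median -1.43) and 7 of 11 (median -2.03).

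**Figure D3:**
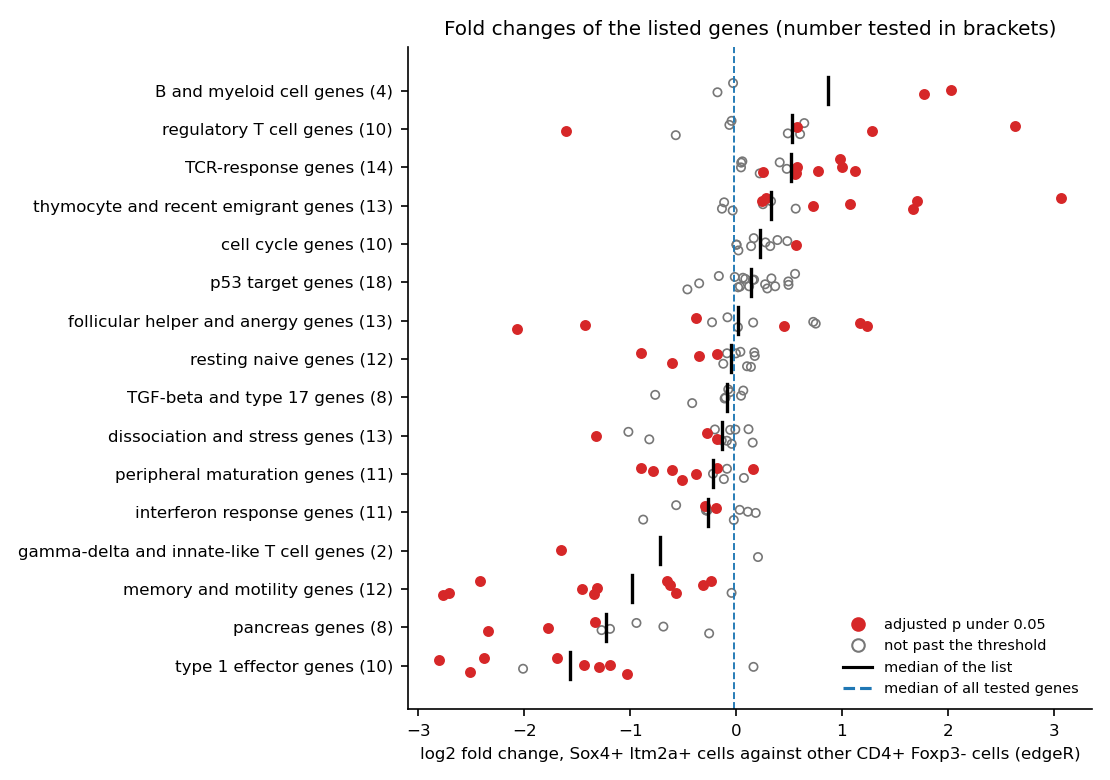
Log2 fold change of each tested gene (horizontal axis) in the 16 lists (vertical axis, number tested in brackets), Sox4+ Itm2a+ cells against the other CD4+ Foxp3- cells. Filled points passed the threshold, black bars are list medians and the dashed line is the median of all tested genes at -0.02, and Il21 with 0 UMIs in the members is not drawn. The type 1 effector and memory lists lie to the left, at medians of -1.56 and -0.98.

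Regulatory T cell genes split. Foxp3 was absent by the rule, yet Tnfrsf9 (4-1BB) was at 2.57, 42.5 and 90.4 CPM against 3.67, 5.73 and 13.2 CPM and rose by 2.64 ± 0.24 (edgeR adjusted p = 2.08e-16). It was above the other cells in 6 of 8 libraries, and its 130 UMIs came from 49 cells. Ikzf2 (Helios), a factor of thymus-derived regulatory T cells, was at 12.01, 48.1 and 330 CPM against 14.6, 29.3 and 55.4 CPM, and rose by 1.28 ± 0.18 on 238 UMIs from 49 cells. PPCA days 2 and 3 gave 56 and 62 of these UMIs. Members were below the other cells in active diabetes (14.8 against 18.2 CPM) and in PPCA day 4 (12.01 against 47.2 CPM). Tnfrsf4 (OX40) rose by 0.57, but was at -0.037 in the libraries with Y-linked transcripts and at -0.30 after thinning. Nrp1, a marker of thymus-derived regulatory cells, had -1.604 and was lower in 8 of 8 libraries. In all 3 of 10 tested genes were higher and 1 lower, with Il2ra, Ikzf4, Ctla4, Tnfrsf18, Gpr83 and Capg unresolved. Among follicular helper and anergy genes 3 of 13 were higher and 4 lower. Bcl6, the lineage factor of follicular helper cells, rose by 1.24 ± 0.26 in 8 of 8 libraries, Cd200 by 1.17 ± 0.19 and Izumo1r (folate receptor 4) by 0.46 ± 0.10. Izumo1r turned to -1.05 after thinning, below the median of all genes there (-0.39). Maf fell by 2.07, Nt5e (CD73) by 1.43 and Slamf6 by 0.37, and Il21, at 1.54 to 17.4 CPM in the other cells, had 0 UMIs in the members.

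The members differed among themselves. Myb and Ikzf2 were both detected in 24 cells, where independent detection would give 6.11, which is 35.3% of the cells with Myb and 49.0% of those with Ikzf2. Tnfrsf9 and Cd200 were both detected in 24 cells, where 5.31 would be given, and Tnfrsf9 and Hivep3 in 24 (8.18). Stmn1 and Nr4a1 were both detected in 29 cells, where 34.8 would be given. Cells with these transcripts were deeper: the median was 8236 UMIs for the 24 cells with Myb and Ikzf2 and 5179 over all members. Such counts share depth and are given as a description. The 24 cells came from 7 of the 8 libraries, with 7 in vehicle day 4, 5 in PPCA day 2 and 0 in PPCA day 4.

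Most markers of other cell types were low or at 0, apart from Cst3 and from B cell transcripts in a few members. Cst3, a cystatin on the B and myeloid list, was at 97.6, 109 and 172 CPM in the members and 109, 119 and 133 CPM in the other cells, and did not pass the threshold (-0.17). Of the 10 B and myeloid genes 4 could be tested, and Cd74 (2.03 ± 0.46) and Cd79a (1.77 ± 0.56) were higher. Cd74 was at -0.42 in the libraries with Xist. The 5 members with the most held 91.2% of the 80 Cd74 UMIs, and Cd79a had 15 UMIs in 8 cells. The summed list was 109 to 444 CPM in the members and 119 to 161 CPM in the other cells. Csf1r and Adgre1 were at 0. Without cells with over 1 UMI of 6 B and myeloid genes (17.8% of members, 14.2% of others), 0 of the list were called in either direction and 497 genes were called in all. Cells with high doublet scores made up 7.71% of members and 6.52% of the others, and 636 genes were called without them. Pancreas genes were at 8.07 to 103 CPM in sum in the members and 8.42 to 286 CPM in the others, with Prss2, Pnlip and Ctrb1 lower among 8 tested. Of 10 γδ and innate-like genes 2 could be tested, Klrd1 was lower (-1.65) and Zbtb16, Klrb1c, Tyrobp and Fcer1g were at 0.

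Few cell cycle genes passed the threshold. Of 10 tested genes 1, the centromere histone Cenpa, was higher (0.57 ± 0.16), and the median was 0.22. Mki67 had 2 UMIs in all members and Cdk1 2, and Ccnb1, Ccnb2 and Birc5 were at 0. Of 18 tested p53 target genes 0 passed the threshold in edgeR's test in either direction, with Mdm2 at 0.02, Sesn1 at 0.37 (adjusted p = 0.0531) and Fas at 0.50 (adjusted p = 0.0595). Interferon response genes were lower for 2 of 11, among them Ifi27l2a (-0.19). None of 8 tested TGF-beta and type 17 genes was called, from -0.76 (Rora) to 0.07 (Tgfbr1). Of 13 dissociation and stress genes 3 were lower, namely Junb (-0.18), Ier2 (-0.27) and Hspa1a (-1.32).

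Requiring both genes was compared with detecting either of them. Against cells with Itm2a alone, 243 of 8590 genes (2.83%) were called by edgeR, and against cells with Sox4 alone 183 of 8590 (2.13%). Of the 30 named genes 24 were called in the former and 11 in the latter. Myb was higher than in both, by 2.21 (adjusted p = 4.6e-12) and 1.69 (adjusted p = 3.1e-06). Hivep3 (1.31 and 1.63), Tnfrsf9 (1.64 and 1.87), Ikzf2 (1.57 and 1.22), Id3 (0.73 and 0.62), Tox (0.49 and 0.46) and Cd5 (0.43 and 0.55) were also higher than in both. Stmn1 differed from cells with Itm2a alone (0.65) and not detectably from those with Sox4 alone (0.22, adjusted p = 0.72). S100a4 was at a median of 60.8 CPM in cells with neither gene, 23.8 CPM with Itm2a alone, 3.75 CPM with Sox4 alone and 3.896 CPM with both. Ccl5 was at 112, 120, 19.1 and 40.2 CPM. The medians of both were lower in the 2 sets of cells with Sox4, with exceptions in single libraries. In PPCA day 2 Ccl5 was highest in cells with Sox4 alone, at 167 CPM against 142 CPM with neither gene, 48.7 CPM with Itm2a alone and 48.8 CPM with both. In vehicle day 4 it was at 44.7 CPM with both and 33.3 CPM with Itm2a alone. S100a4 ranged up to 24.2 CPM with Sox4 alone (PPCA day 3) and 48.0 CPM with both (PPCA day 4). Neither gene passed the threshold between members and cells with Sox4 alone (adjusted p = 0.66 and 0.83). These fits share the members' sums, so the comparisons are not independent.

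**Figure D4:**
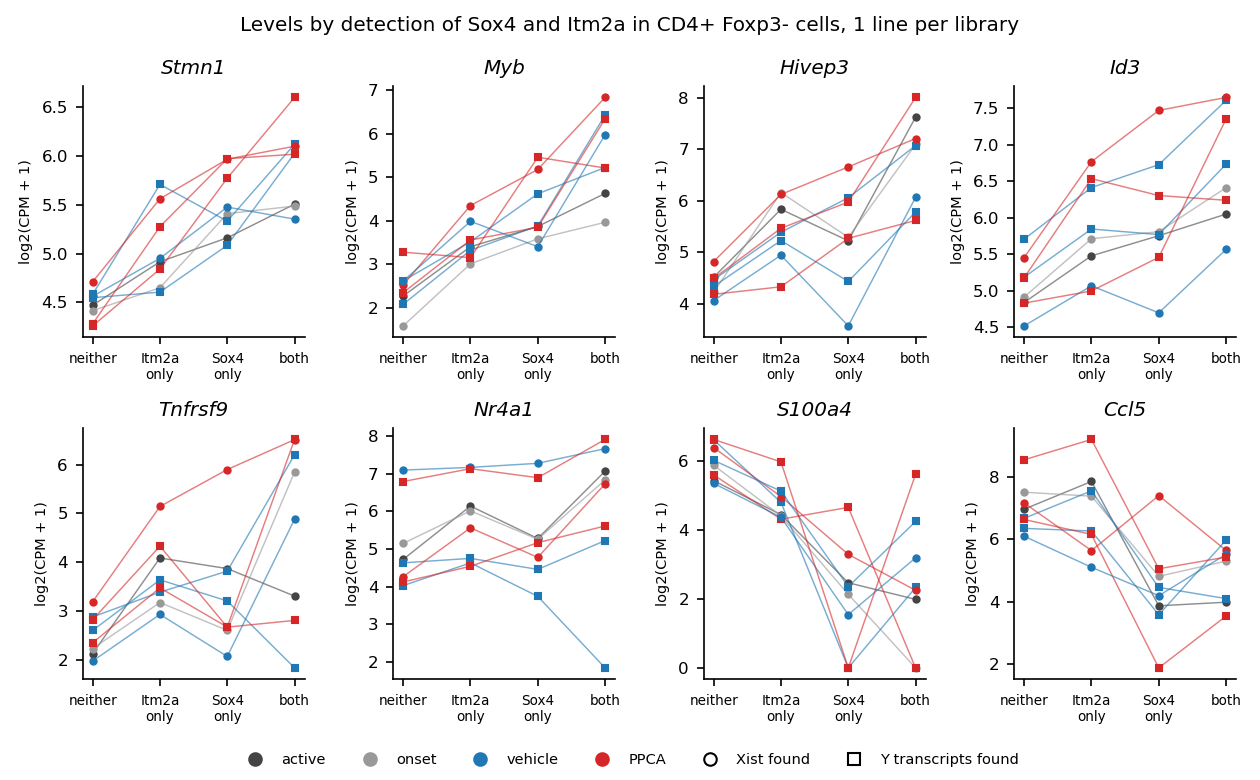
Level of 8 genes as log2(CPM + 1) (vertical axes) in CD4+ Foxp3- cells with neither gene, Itm2a alone, Sox4 alone or both (horizontal axes), 1 line per library. Colours give the groups, circles libraries with Xist and squares libraries with Y-linked transcripts. Myb and Stmn1 are lowest in cells with neither gene in most libraries, and S100a4 is highest in cells with neither gene in all 8. Ccl5 in PPCA day 2 is highest in cells with Sox4 alone, at 167 CPM.

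The authors' deposited table of cluster markers places the rule genes in the cluster named CD4 Th0. There Itm2a has a log2 fold change of 0.67 and was detected in a fraction of 0.231 of cells, and Sox4 has 0.32 and a fraction of 0.103. Tesc is listed for CD4 Naive (0.40, fraction 0.407). Of the Th0 genes in the authors' deposited table, 175 were tested here, of which 61 were higher in the members (34.9% of the listed genes and 32.4% of the 188 higher genes) and 4 lower. Myb, Hivep3, Id3, Dnmt3a, Ephx1 and Smc4 were among the 61. As many higher genes were in the authors' deposited table for CD4 Treg, where of 563 tested genes 61 were higher (10.8% of the listed genes and 32.4% of the higher genes) and 76 lower. Hivep3, Id3, Ephx1 and Smc4 were in both lists. Of the 426 tested genes that the authors' deposited table lists for CD4 Th17, 106 were lower in the members (24.9%, beside 3.83% of all genes) and 21 higher. The CD4 Naive, CD4 Th1, CD8 TCM and CD8 TRM TEM lists in the authors' deposited table also had more lower than higher genes: 13 of 53 (24.5%) against 3, 13 of 81 (16.05%) against 1, 30 of 82 (36.6%) against 4, and 113 of 668 (16.9%) against 23. The table was made from the same libraries and is no independent evidence.

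Few genes differed between PPCA and vehicle within the members, where 3 PPCA libraries of 32 to 42 cells faced 3 vehicle libraries of 44 to 192. In edgeR's test with harvest day as a factor, 5 of 3569 genes passed the threshold (0.14%): 4 were higher and 1, the predicted gene Gm42418, was lower (-1.41). Gm42418 was also lower with PPCA on 3 of 3 days in the other CD4+ Foxp3- cells, and its interaction did not pass the threshold (-0.29, edgeR adjusted p = 0.571). Bcl2a1b, an anti-apoptotic BCL2 relative with near-identical copies whose reads may be shared, was at 218, 74.5 and 78.0 CPM with PPCA on days 2, 3 and 4 and 24.2, 17.98 and 50.4 CPM with vehicle. It was higher on 3 of 3 days (1.74 ± 0.35, adjusted p = 0.0053). Tbc1d4, a Rab GTPase-activating protein of glucose uptake, was at 177, 213 and 84.0 CPM against 4.03, 69.4 and 61.8 CPM (1.59 ± 0.32, adjusted p = 0.0053). It was also higher on 3 of 3 days. Gadd45b, a stress and NF-kB response gene, was at 131, 31.9 and 78.0 CPM against 12.1, 0 and 50.4 CPM (1.80 ± 0.42, adjusted p = 0.0376). Ikzf2 was at 210, 330 and 12.01 CPM against 52.5, 43.7 and 56.9 CPM (1.43 ± 0.33, adjusted p = 0.0376), so day 4 went the other way.

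The Ikzf2 and Tbc1d4 transcripts of the PPCA members lay in few cells. The 56 Ikzf2 UMIs of PPCA day 2 came from 8 cells and the 62 of day 3 from 7, and 5 cells held 89.3% and 96.8% of them. For Tbc1d4 the 5 highest cells held 83.0% and 97.5%. Bcl2a1b was found in 18, 7 and 8 PPCA members on days 2, 3 and 4, and Gadd45b in 10, 4 and 9. On day 3 neither was in more cells than Ikzf2. The count depended on the setting: DESeq2, the fit without the day block and thinning to 2000 UMIs gave 0, limma-voom 2, leaving out doublet-scored cells 1 and the sex transcripts as a further factor 21. Without the libraries of day 3 there were 0 and without those of day 4 29. The p53 target Cdkn1a had 0 UMIs in the 3 PPCA libraries of the members, beside 0.648 to 15.3 CPM in the other cells. Mdm2 (0.13 ± 0.37) and Ccng1 (-0.09 ± 0.40) did not pass the threshold. Stmn1 and Tesc were at 0.40 ± 0.34 and -0.39 ± 0.26, without passing it.

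The PPCA effect was set against that in the other CD4+ Foxp3- cells by an interaction term. It differed for 9 of 10938 genes (0.0823%). Higher in the members than in the other cells were the effects on Bmyc (1.35), Bcl2a1b (1.32), Ikzf2 (1.09), Bcl2l11 (1.08), Tbc1d4 (1.04) and Nfkbia (0.67). Lower were those on Tug1 (-2.26), Ccl5 (-1.76) and Gmfg (-0.74). The Ikzf2 value was -0.071 without the day 3 libraries. After thinning Bcl2a1b was at -0.97, Nfkbia at -0.018 and Ccl5 at 0.11, beside a median of -0.30 over all genes. Bcl2l11 encodes the pro-apoptotic BIM, which was at 180, 79.8 and 126 CPM with PPCA and 36.3, 51.4 and 75.6 CPM with vehicle in the members. It was higher on 3 of 3 days in the members and in the other cells. Ccl5 in the other cells was at 129, 91.8 and 391 CPM with PPCA and 110, 77.1 and 57.7 CPM with vehicle, and in the members at 48.8, 10.6 and 42.0 CPM against 16.1, 61.7 and 44.7 CPM. All 9 adjusted p lay between 0.0031 and 0.0497, and without the day 2 libraries 3 genes passed, without day 3 2. Thinning, the fit without the replicate block and leaving out doublet-scored cells gave 0.

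**Figure D5:**
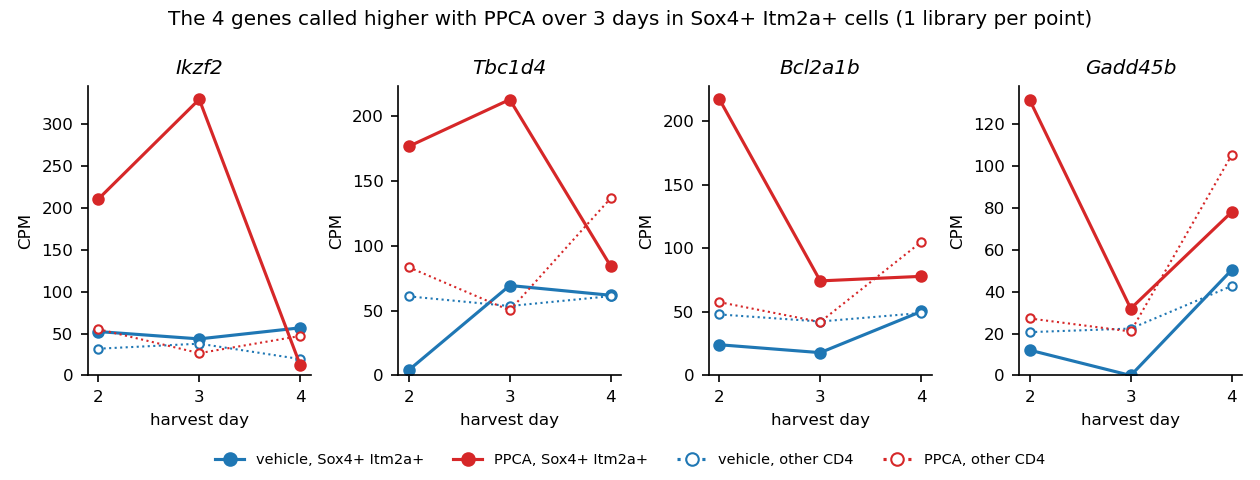
CPM (vertical axes) of 4 genes by harvest day (horizontal axes) in vehicle and PPCA libraries, for Sox4+ Itm2a+ cells (filled) and the other CD4+ Foxp3- cells (open). Each point is 1 library, so there are no error bars. Ikzf2 in the members is at 210 and 330 CPM with PPCA on days 2 and 3 and at 12.01 CPM on day 4.

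Active and onset diabetes have 1 library each, so their members were set side by side without a test. Of 123 listed or named genes with at least 10 UMIs in either library, 8 were at least 2-fold higher and 13 at least 2-fold lower in active diabetes. Interferon response genes made up 5 of the 8: Rtp4 was at 83.0 against 9.13 CPM, Isg15 at 116 against 29.2, Ifit1 at 56.3 against 16.4, Irf7 at 65.2 against 21.9 and Ifi27l2a at 1025 against 431. The other CD4+ Foxp3- cells had log2 ratios of 1.94, 1.67, 2.66, 1.14 and 0.99 for these genes, all on the same side. Ahnak, at 59.3 against 10.96 CPM in the members (20 and 6 UMIs), had a log2 ratio of 2.44 there and -0.16 in the other cells. Among the lower genes Tnfrsf9 was at 8.89 against 56.6 CPM (3 and 31 UMIs), Egr2 at 17.8 against 40.2 and Egr1 at 80.0 against 175. In the other cells their log2 ratios were 0.36, 0.01 and -0.01. Of the 13 receptor-response genes with enough UMIs 9 were lower in active diabetes, 3 of them at least 2-fold (Egr1, Egr2 and Tnfaip3), and 4 were higher. Irf4 was among the 8 genes at least 2-fold higher, at 41.5 against 18.3 CPM (14 and 10 UMIs), and Nr4a1 was at 133 against 113 CPM. Of 10 dissociation and stress genes 9 were also lower, with Fos at 160 against 462 CPM and Hsp90aa1 at 658 against 1432 CPM. Their log2 ratios were -1.53 and -1.12 in the members and -1.56 and -0.77 in the other cells, and their part in the receptor-response values was not tested.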

How the data were processed

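Pancreatic T cells of 8 libraries were measured by droplet single-cell RNA-seq (10x Genomics 3' kit, version 2, per the labels' protocols). The deposited matrices hold UMI counts per gene and barcode over 32285 features, without normalization. Their headers name Cell Ranger 6.0.0, and the submitters' processing notes name Cell Ranger 6.1.2 and Seurat. The genome build is not given in the sources used here. For clusters, the deposited marker table by the authors gives a log2 fold change, a p-value and a fraction of cells with the gene per cluster, and was used for description.

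The cells, gene lists, tests and most alternatives were chosen with earlier results of these data known. Counts were summed per library over members and over other CD4+ Foxp3- cells (16 sums) and fitted with edgeR 4.0.16 in R 4.3.3 (TMM, filterByExpr, quasi-likelihood, library as block). The 12 rule genes were taken out before the fit, and each SE is the log2 fold change divided by the root of its F statistic. The PPCA fit used harvest day as a factor, with 2 residual degrees of freedom. Adjusted p-values are Benjamini-Hochberg over all tested genes, with a threshold of 0.05. Named genes are the 15 highest and 15 lowest past the threshold with 1 sign in 8 of 8 libraries and at least 20 CPM in the higher class, list genes, the 4 markers and PPCA genes; genes of receptor segments and mitochondria (13 of 582 called) were not named. Genes named in the text on co-detection, and the cells behind each gene, were chosen after their values were seen. The block was checked by correlating deviations across genes. Members and other cells of a library correlated at 0.476 to 0.841, and vehicle and PPCA members of days 2, 3 and 4 at 0.128, 0.203 and 0.304. Unmatched libraries or days were not correlated, so these values do not show that day pairs the libraries. Doublets were scored with Scrublet in scanpy 1.11.5. The top 0.8% of barcodes per 1000 barcodes were marked and left out in an alternative. Other alternatives were DESeq2 1.42.0, its size factors, limma-voom (limma 3.58.1), no low-count filter, no replicate block, thinning, cells of 4000 to 8000 UMIs, libraries by sex transcripts and each library or day left out. The scripts were tested on simulated counts. Intervals cover counting error only. Values of some single genes of the lists are not reported here.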

Additional observations from a re-analysis of the deposited data

Results flagged for a closer look

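The effect of PPCA differed between the Sox4+ Itm2a+ cells and the other CD4+ Foxp3- cells of the same libraries for 9 genes, by the interaction term of edgeR's quasi-likelihood fit. The difference of effects on the log2 scale was 1.355 for Bmyc, 1.324 for Bcl2a1b, 1.086 for Ikzf2, 1.078 for Bcl2l11, 1.038 for Tbc1d4 and 0.6714 for Nfkbia. It was -2.263 for Tug1, -1.761 for Ccl5 and -0.7439 for Gmfg. Without the day 3 libraries the Ikzf2 value was -0.071, and on day 4 Ikzf2 was at 12.01 CPM in the PPCA members and 56.9 CPM in the vehicle members. After thinning Bcl2a1b was at -0.97, Nfkbia at -0.018 and Ccl5 at 0.11, beside a median of -0.30 over all genes, so Nfkbia stayed above that median. Tug1, a long noncoding RNA, was at 11.3, 15.96 and 0 CPM (3, 3 and 0 UMIs) in the PPCA members of days 2, 3 and 4. In the vehicle members Tug1 was at 40.3, 33.4 and 39.9 CPM (10, 13 and 49 UMIs). In the other cells it lay between 33.8 and 44.4 CPM in these 6 libraries. Gmfg, a regulator of actin branching, was at 165, 261 and 270 CPM in the PPCA members and 319, 411 and 377 CPM in the vehicle members.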

How the results depend on the processing

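The 582 genes called between Sox4+ Itm2a+ cells and other CD4+ Foxp3- cells became 355 with DESeq2, 361 in libraries with Xist (327 of them shared), 188 in libraries with Y-linked transcripts (an alternative chosen after seeing the data), 308 after thinning and 110 with no replicate block. Leaving out 1 library gave 442 to 598. After thinning, 110 genes were called against cells with Itm2a alone and 90 against cells with Sox4 alone. The 5 genes of the PPCA contrast became 0 with DESeq2, with no replicate block and after thinning, 2 with limma-voom, 11 without the low-count filter, 21 with sex transcripts as a factor, 13 without cells with B or myeloid UMIs and 1 without doublet-scored cells, and 0 to 29 with a day left out. The 9 interaction genes became 2 without the filter, 0 with no replicate block, after thinning and without doublet-scored cells, and 2 to 10 with a day left out. Directions turned in libraries with Xist for Cd74 (-0.42) and in those with Y-linked transcripts for Nr4a3 (-0.083) and Tnfrsf4 (-0.037). After thinning, where the median of all genes was -0.39, the sign turned for Dusp2 (-0.40), Egr2 (-0.64), Ezh2 (-0.14), Irf4 (-0.55), Izumo1r (-1.05), Nab2 (-0.88), Ptprc (-0.28), Satb1 (-0.10), Tnfrsf4 (-0.30) and Ybx3 (-0.33). Of these Ezh2, Ptprc, Satb1, Tnfrsf4 and Ybx3 lay above that median, so they did not turn relative to other genes. It also turned in the interaction for Bcl2a1b (-0.97), Ccl5 (0.11) and Nfkbia (-0.018), where the median of all genes was -0.30 and Nfkbia lay above it. Chosen after seeing the data, leaving out vehicle day 4 moved Cd24a in members with 1 UMI of each rule gene from 10.1 to 3.50 CPM. The Ikzf2 interaction lay between -0.071 (without day 3) and 2.29 with a day left out. The share difference was between -0.57 and 0.027 percentage points with a day left out. Thinning left 156 members and put members that lost either gene among the comparison cells, and the cause of these changes was not tested. With 32 to 192 members per library, low transcripts rest on few cells. No call on the share changed under any alternative, since the test cannot go below 0.25.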

Other observations

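Ribosomal protein genes of the large subunit (symbols of Rpl and a number) were examined after their values were seen. Those of the small subunit (Rps) were left out of the counts and shares given here. Of 46 tested Rpl genes 35 were lower and 1 was higher in the Sox4+ Itm2a+ cells than in the other CD4+ Foxp3- cells. The median log2 fold change of these Rpl genes was -0.21. Their share of all UMIs was 13.7% to 15.98% in the members and 14.9% to 16.6% in the other cells, and it was lower in the members in 8 of 8 libraries. In PPCA day 2 the shares were 15.3% and 15.4%.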
